A study of Mus musculus with 58 samples.

Results

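The Serpina3 protease inhibitor cluster was examined in 2 brain regions of *APOE* targeted replacement mice, the entorhinal cortex (EC) and, for comparison, the primary visual cortex (PVC). The 7 members were *Serpina3n*, *Serpina3m*, *Serpina3g*, *Serpina3i*, *Serpina3f*, *Serpina3c* and *Serpina3k*, and all 7 were found by symbol among the 31246 genes listed for each region. They were selected on the authors' comparison of the genotypes, in which *Serpina3m* and *Serpina3n* changed most. Those genotype values belong to the authors' comparison and are not given here, so the levels below describe both genotypes together.

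Serpins are proteins that trap proteases by offering an exposed loop near their C-terminal end, the reactive centre loop, which the protease cuts before it is locked in place. The human genome holds a single *SERPINA3* gene, for alpha-1-antichymotrypsin, an acute phase protein also found in amyloid plaques, whereas in the mouse this gene has been multiplied into a cluster. *Serpina3n* is secreted and is a widely used marker of reactive astrocytes. It is known to inhibit granzyme B and leukocyte elastase.

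RNA-sequencing was performed on 58 libraries from male C57Bl/6 mice aged 14 to 15 months, in which human *APOE*, driven by the mouse promoter, stands in place of mouse *Apoe*. In each region 10 libraries came from *APOE3/3* mice, with the human ε3 allele on both chromosomes, and 19 from *APOE3/4* mice, with 1 copy each of ε3 and ε4. The same 29 mouse numbers were used in the EC and the PVC. The paper states that the mice of the whole study, which also included immunolabelled mice, came from separate colonies. Which colony the sequenced mice came from is not given. Poly(A)+ RNA was read as single-end sequences of 149 bases. The value analysed was the mean normalized count, which is the authors' mean over the 29 libraries of a region of the reads of a gene divided by the size factor of the library. *APOE3/4* mice made up 65.5% of the libraries behind each mean. Values for individual mice were not used. The spread between mice therefore cannot be given, and no difference below was tested. Depth per library was not analysed here, but over all genes the means added up to 49385488 for the EC table and 27058393 for the PVC table.

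The labelled tissue was checked against markers fixed with the gene lists. All 5 neuronal markers listed, all 9 astrocyte markers, all 5 microglial markers and all 4 oligodendrocyte markers had a mean of 10 or more in both regions, as did all 4 endothelial markers. *Snap25*, a protein of the synaptic release machinery, had a mean normalized count of 112526 (EC) and 88658 (PVC). *Rbfox3* was not listed under this symbol. The markers hold no gene that separates the EC from the PVC, so the regional label itself was not checked. Hepatocytes are a main source of several plasma serpins. Of 6 hepatocyte markers 2 reached 10 in the EC and 1 in the PVC. These were *Cyp2e1* (38.8 in the EC and 17.7 in the PVC) and, in the EC only, *Apoa1* (17.4 and 6.27). The minimum of 10 was the same in both regions, although the median gene was 1.86 times higher in the EC values. Reaching it in the EC only therefore does not show a higher level there. *Alb*, the gene of serum albumin, was at 0.936 (EC) and 0.306 (PVC). Of 4 choroid plexus markers and of 5 leukocyte and mast cell markers, 2 each reached 10 in both regions.

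The GENCODE annotation of NCBIM37, the mm9 build used by the authors, places 14 Serpina3 genes and pseudogenes on chromosome 12 from 105350934 to 105652539, a span of 302 kb. *Serpina3n* is the last gene of this run, at chr12:105644939-105652539 on the plus strand. *Serpina3m* is its neighbour on the side of the other paralogs, at chr12:105625374-105632467. *Serpina3k* (chr12:105576696-105583951) comes next among the members. *Serpina3i* (chr12:105501332-105507582), *Serpina3g* (chr12:105474455-105480149) and *Serpina3f* (chr12:105452754-105459339) lie together in the middle. *Serpina3c* (chr12:105384592-105392080) is the only member on the minus strand. Of the 14 genes, 10 were listed in the tables. The 3 listed genes that are not members, *Serpina3a*, *Serpina3b* and *Serpina3j*, had means of 0, 0.245 and 0.0301 in the EC. The 4 not listed are annotated as 3 pseudogenes and a processed transcript, and the authors counted reads on protein coding genes.

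**Figure D1:**
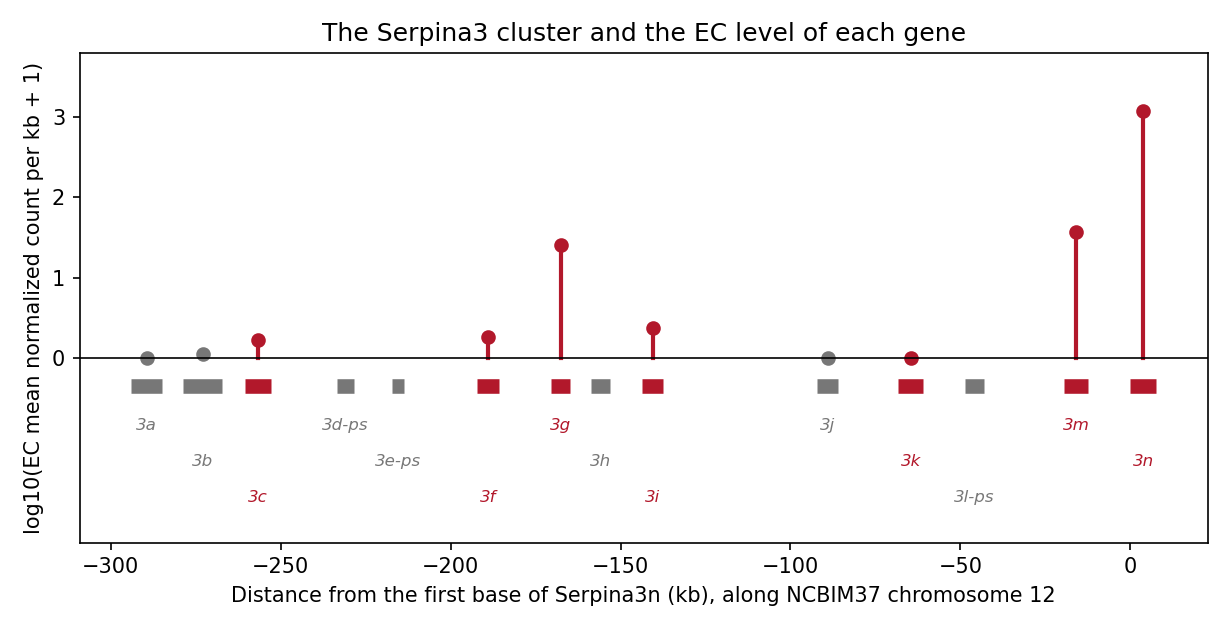
Map of the 14 annotated Serpina3 genes. The x axis is the distance in kb from the first base of *Serpina3n*, bars under the line are genes (red for the 7 members, grey for others), and the height of each stem is log10 of the EC mean normalized count per kb of exon plus 1, drawn for the 10 genes listed. *Serpina3n* stands at 1184 per kb, its neighbour *Serpina3m* at 36.1 and *Serpina3g* at 24.8.

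The coding sequences of the members resemble each other closely over most of their length and differ in a few stretches. Identity between pairs of members, over the bases aligned, ran from 81.2% for *Serpina3f* and *Serpina3k* to 92.0% for *Serpina3m* and *Serpina3k*. *Serpina3n* and *Serpina3m* were identical at 1068 of 1254 aligned bases (85.2%), and both hold 418 codons. The annotated coding sequence of *Serpina3g* is shorter, at 744 bases, and 644 of these aligned to *Serpina3n*. In windows of 60 bases along the *Serpina3n* coding sequence, the mean identity of the other members reached 96.4% at bases 826 to 885. It was lowest, at 63.7%, at bases 1126 to 1185, near the 3′ end of the coding sequence. The reactive centre loop of serpins is encoded towards that end, but its position was not determined here. A second low stretch, at bases 691 to 750, had a mean identity of 69.2%.

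This least alike stretch is shown for the 3 members with the most reads and for *Serpina3k*, the member closest to *Serpina3m* over the whole coding sequence. Each sequence is coding sequence from NCBIM37 in the direction of the gene, and capitals mark bases with no identical aligned base in *Serpina3n*.
*Serpina3n* (chr12:105651685-105651744, plus strand): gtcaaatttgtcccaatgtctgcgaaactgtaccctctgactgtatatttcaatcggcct
*Serpina3m* (chr12:105632006-105632065, plus strand): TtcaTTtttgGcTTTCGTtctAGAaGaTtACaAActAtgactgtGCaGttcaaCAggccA
*Serpina3g* (chr12:105479309-105479368, plus strand): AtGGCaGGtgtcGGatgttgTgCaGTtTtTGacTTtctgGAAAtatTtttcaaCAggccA
*Serpina3k* (chr12:105583506-105583559, plus strand): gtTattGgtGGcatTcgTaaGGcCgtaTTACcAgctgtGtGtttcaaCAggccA
*Serpina3m* had 26 bases unlike *Serpina3n* among its 60, *Serpina3g* had 25 of 60 and *Serpina3k* 19 of 54. Over the aligned bases of this stretch *Serpina3m* was 56.7% identical to *Serpina3n*, the lowest of the 6 members compared with it. Bases lost to gaps are not counted in this percentage. *Serpina3c*, not shown, had fewer bases as in *Serpina3n*, 32 in a stretch of 51, than *Serpina3m*, with 34 in 60.

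**Figure D2:**
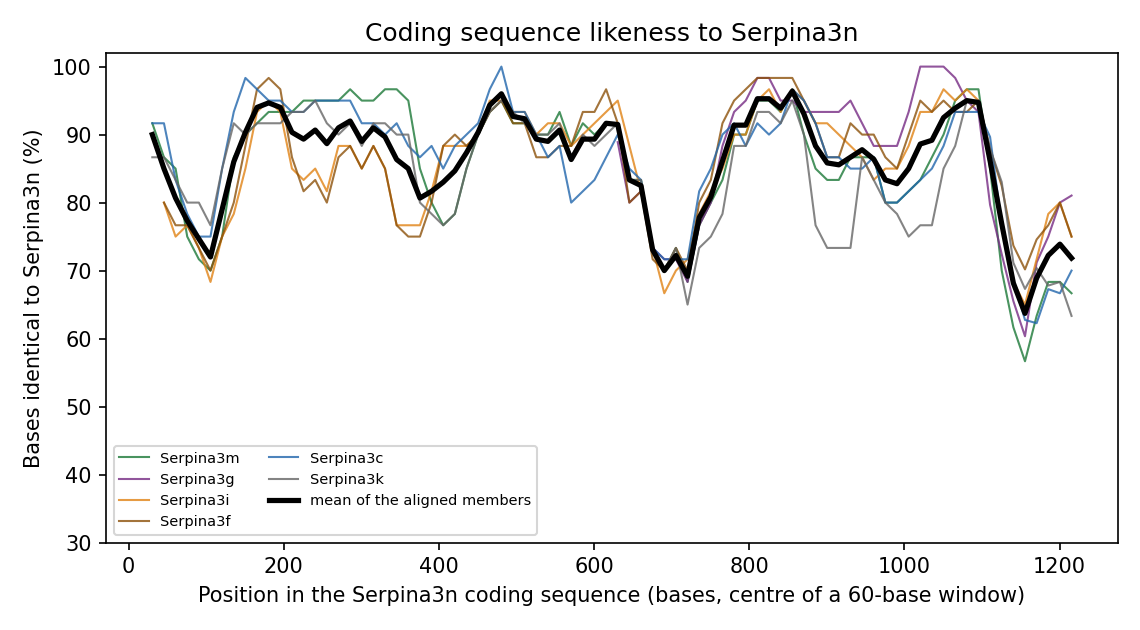
Likeness of the members to *Serpina3n* along its coding sequence. The x axis is the centre of a window of 60 bases, the y axis the percentage of aligned bases identical to *Serpina3n*, thin lines are the 6 other members and the black line is their mean. The mean falls to 63.7% near the end of the coding sequence.

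Closely related genes can share reads, which would make their separate values uncertain. This was examined by cutting the exons of each member into all windows of the read length of 149 bases. None of the 1916 windows of *Serpina3n* was found in another gene of the cluster. The same was true of the 2508 windows of *Serpina3g*, the 2289 of *Serpina3i*, the 2366 of *Serpina3f* and the 2065 of *Serpina3c*. *Serpina3m* shared 6 of 1511 windows (0.397%) with *Serpina3k*, and none with *Serpina3n*. When up to 2 mismatches were allowed, the shared part was 0.0522% for *Serpina3n*, and 10.99% for *Serpina3m*, all of it with *Serpina3k*. Only genes of the cluster were searched, and how reads that align to several genes were counted is not given in the sources used here.

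*Serpina3n* held nearly all of the level of the family in both regions. Its mean normalized count was 2444 (EC) and 1008 (PVC). These means were above those of 81.7% and 77.2% of the genes with a value above 0 in the EC and the PVC. Divided by exon length, *Serpina3n* was at 1184 per kb in the EC and 488 in the PVC. This made up 94.9% of the summed level per kb of the 7 members in the EC and 95.7% in the PVC. Among the 59 serpin genes listed, it ranked 3 in both regions by level per kb. Above it were *Serpini1* (neuroserpin, an inhibitor of tissue plasminogen activator made by neurons), at 2615 and 1493 per kb, and *Serpine2* (protease nexin 1, an inhibitor of thrombin), at 1807 and 898 per kb in the EC and the PVC.

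*Serpina3m* was far below its neighbour. Its mean normalized count was 59.9 (EC) and 26.9 (PVC), above 45.8% and 43.8% of the genes with a value above 0. Per kb, *Serpina3n* was 32.8 times *Serpina3m* in the EC and 30.1 times in the PVC. Such a ratio within a table does not depend on how the regions were normalized.

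*Serpina3g*, known as Spi2A, is an intracellular serpin of blood cells that also inhibits lysosomal cysteine cathepsins. Its mean normalized count was 57.1 (EC) and 11.2 (PVC). Per kb, *Serpina3m* was 1.46 times *Serpina3g* in the EC and 3.33 times in the PVC. *Serpina3g* was thus close to *Serpina3m* in the EC and further below it in the PVC.

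The other 4 members were at the edge of detection. *Serpina3i* had a mean normalized count of 3.03 (EC) and 0.403 (PVC). *Serpina3f* had 1.88 and 0.191, and *Serpina3c* had 1.48 and 0.696. Summed over the 29 libraries, these means come to 87.8 normalized reads of *Serpina3i*, 54.6 of *Serpina3f* and 42.8 of *Serpina3c* in the EC, and to 11.7, 5.53 and 20.2 in the PVC. *Serpina3k*, known as contrapsin and abundant in liver and plasma, was listed at 0 in the EC and at 0.0466 in the PVC, or 1.35 normalized reads over all libraries. A total of 3 reads over 29 libraries would give a mean of 0.103, so neither value of *Serpina3k* can be told from 0. In the EC the order per kb was *Serpina3n*, *Serpina3m*, *Serpina3g*, *Serpina3i*, *Serpina3f*, *Serpina3c* and *Serpina3k*. In the PVC *Serpina3c*, at 0.315 per kb, came before *Serpina3i*, at 0.181, and *Serpina3f*, at 0.0833. As no spread is known, neighbours in this order were not tested against each other.

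**Figure D3:**
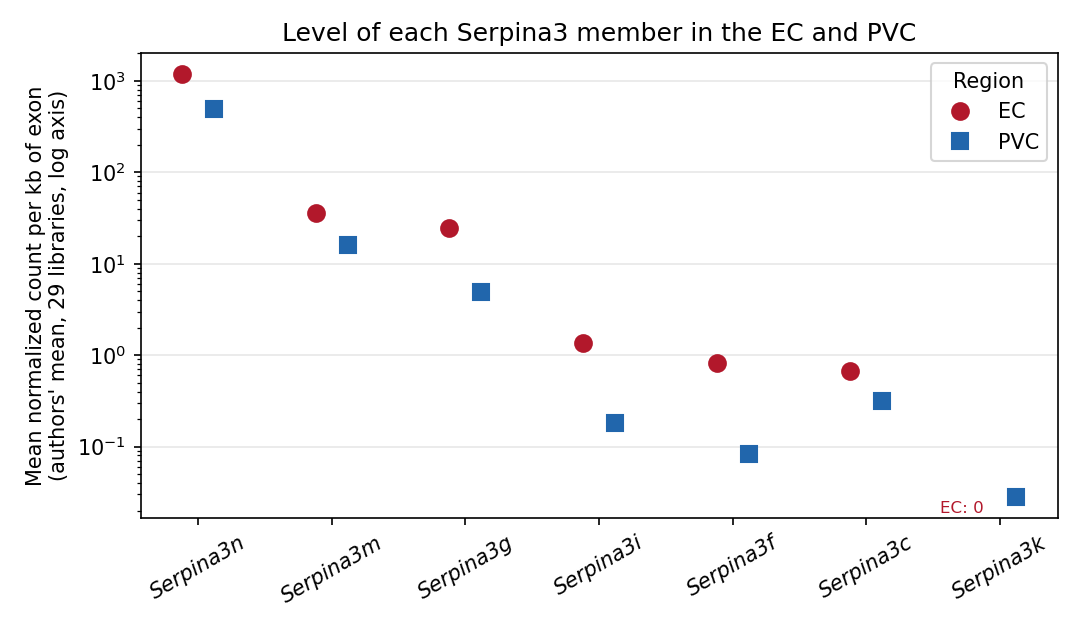
Level of the 7 members in the EC (red circles) and the PVC (blue squares). The y axis is the authors' mean normalized count per kb of exon on a log axis, each point is 1 pooled mean over 29 libraries and there are no error bars because the spread between mice is not known. *Serpina3n* is at 1184 in the EC and 488 in the PVC, and *Serpina3k*, at 0 in the EC, has no EC point.

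The EC and the PVC were compared next, since the study set the EC, which is vulnerable in Alzheimer's disease, against the PVC, which is relatively spared. The tables were normalized separately, and the median gene was 1.86 times higher in the EC table, so each ratio was taken relative to that median gene. On this scale *Serpina3g* was 2.74 times higher in the EC than in the PVC (log2 ratio 1.45), *Serpina3n* 1.31 times (log2 ratio 0.38) and *Serpina3m* 1.20 times (log2 ratio 0.26). Of the 3 members that reached a mean of 10 in both regions, 1 was at least 2-fold higher in the EC and 0 were at least 2-fold lower. Among all 15642 such genes 2.66% were at least 2-fold higher and 2.12% at least 2-fold lower. The ratio of *Serpina3g* was above that of 99.0% of these genes, that of *Serpina3n* above 88.2% and that of *Serpina3m* above 82.2%. The PVC mean of *Serpina3g*, 11.2, was close to the minimum of 10, above only 1.17% of the PVC genes of at least 10. *Serpina3i* and *Serpina3f* had higher values in the EC than in the PVC, from very few reads. Without the minimum, their log2 ratios to the median gene were 1.99 and 2.38, and that of *Serpina3c* was 0.16. At that setting 3 of 6 members and 8.23% of all genes were at least 2-fold higher in the EC. Scarce Serpina genes outside the members also varied widely, and of those with a ratio all but *Serpina6* were above 0. Relative to the median gene of at least 10, *Serpina11* had a log2 ratio of 3.25, *Serpina3b* 3.12, *Serpina1c* 2.18, *Serpina1e* 0.39 and *Serpina6* −0.83. Higher values in the EC were therefore not particular to *Serpina3i* and *Serpina3f*. In bulk tissue, fewer cells of a type and less RNA per cell cannot be told apart.

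**Figure D4:**
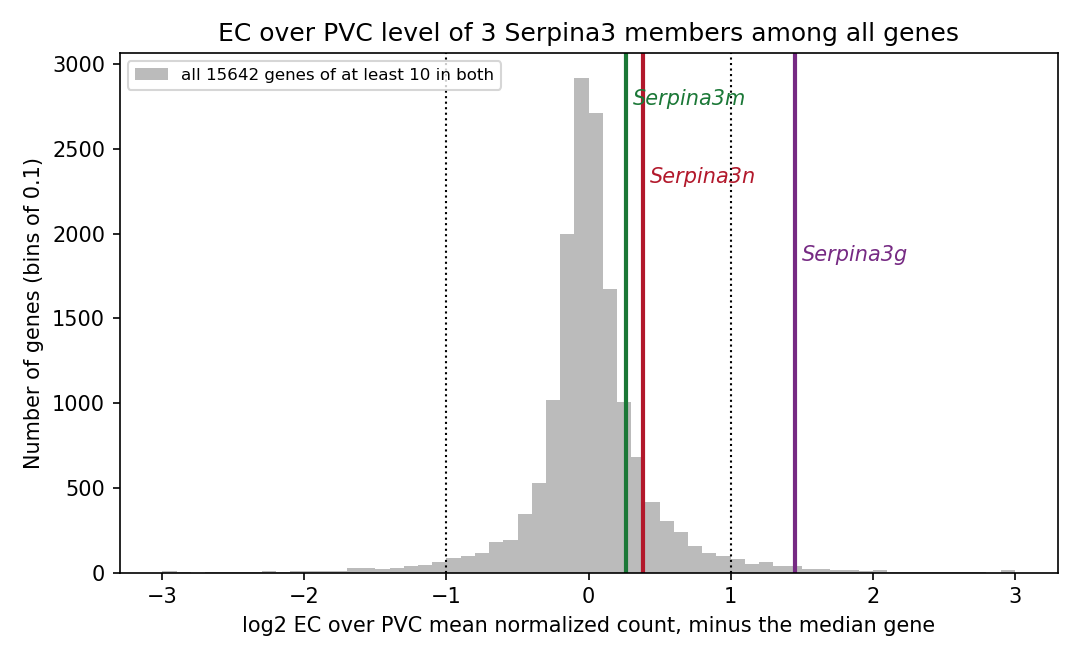
Distribution of the log2 ratio of EC over PVC mean normalized count, relative to the median gene, for the 15642 genes with at least 10 in both regions. The y axis counts genes in bins of 0.1, values past 3 are drawn in the outermost bins, dotted lines mark a 2-fold ratio and coloured lines mark *Serpina3m* (0.26), *Serpina3n* (0.38) and *Serpina3g* (1.45).

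The ratios of reactive astrocyte genes and of cell type markers are given beside those of the members. Of the 29 reactive astrocyte genes with at least 10 in both regions, 22 had a ratio above that of the median gene and 7 one below it, with a median log2 ratio of 0.40. *Gfap*, the intermediate filament of astrocytes, had a mean normalized count of 10760 (EC) and 3783 (PVC), a log2 ratio of 0.62. Next highest in the EC was *Fkbp5*, a glucocorticoid-induced co-chaperone (2140 and 873, log2 ratio 0.40). *Vim*, another intermediate filament, followed (1709 and 759, log2 ratio 0.28). Per kb, *Serpina3n* was 0.464 times *Gfap* in the EC and 0.545 times in the PVC. Against the astrocyte marker *Aqp4* it was also lower in the EC (0.857 and 0.956 times). Against the astrocyte marker *Slc1a3* (0.312 and 0.272 times) and *Vim* (1.618 and 1.502 times) it was higher in the EC. The direction thus depended on the gene compared. Of the 29 genes, 4 were at least 2-fold higher in the EC and 1 at least 2-fold lower, against 2.66% and 2.12% of all genes. *Cd44*, a hyaluronan receptor, had the highest log2 ratio, 2.49, and *Ptgs2* the lowest, −1.14. These genes were named after their values were seen. The 9 general astrocyte markers had a median log2 ratio of 0.15, with 5 above 0 and 4 below, from −0.35 for *Aldh1l1* to 0.62 for *Gfap*. All 4 oligodendrocyte markers were at least 2-fold lower in the EC, against 2.12% of all genes, with a median log2 ratio of −1.44. Of the 2 choroid plexus markers with at least 10 in both regions, *Ttr*, the gene of transthyretin, had a log2 ratio of −2.18 (155 in the EC, 378 in the PVC) and *Kl*, the gene of klotho, one of 0.02. The median was 0.06 for the 5 microglial markers, 0.03 for the 4 endothelial markers and −0.24 for the 5 neuronal markers. *Ptprc*, the leukocyte antigen CD45, had a mean normalized count of 256 (EC) and 97.3 (PVC), a log2 ratio of 0.50. The other leukocyte and mast cell marker with at least 10 in both regions was *Kit* (3179 and 1372, log2 ratio 0.319). *Cd3e* (3.35 and 0.547), *Ms4a1* (1.799 and 0.503) and *Cpa3* (2.599 and 0.467), the rest of these markers, were below 10 in both regions. The part of these cell types in the ratios of the members was not tested.

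Signals that are known to drive acute phase serpins act through the receptor chain gp130 and the transcription factor STAT3. Of the 23 genes listed for these and other cytokine signals, 22 were present, 18 had at least 10 in both regions, and their median log2 ratio was 0.00, with 9 above 0 and 9 below. The genes of this list with the highest mean in the EC were *Jak1*, a kinase of cytokine receptors (10344 in the EC and 5240 in the PVC), *Nr3c1*, the glucocorticoid receptor (5002 and 3644), and *Lifr*, the receptor of leukemia inhibitory factor (4219 and 2105). *Stat3* had a mean normalized count of 2779 (EC) and 1486 (PVC), a log2 ratio of 0.01. *Osmr*, a receptor chain of oncostatin M that is also among the reactive astrocyte genes, had a log2 ratio of 0.68. The cytokine genes *Il6* (1.37 and 0.617) and *Tnf* (1.62 and 0.425) were below 10 in both regions, as were *Osm* and *Cntf*. The cytokine genes *Lif* (35.6 and 12.7) and *Il1b* (13.01 and 11.4) were above 10 in both regions. Their log2 ratios were 0.598 for *Lif* and −0.709 for *Il1b*.

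Most serine proteases of a fixed list, which includes known targets of serpins of this type, were scarcely found. Of 15 serine proteases of leukocytes, mast cells and the kallikrein family, 12 had a mean normalized count below 10 in both regions. Many genes were below it, since of all 31246 listed 16941 had at least 10 in the EC and 15682 in the PVC. Granzyme B (*Gzmb*) had 0.556 (EC) and 0.267 (PVC). Leukocyte elastase (*Elane*) had 0.215 and 0.103, and cathepsin G (*Ctsg*) 0.171 and 0.0346. The 3 above this level were the kallikreins *Klk8* (94.4 and 37.5) and *Klk6* (13.7 and 21.5), and proteinase 3 (*Prtn3*, 72.6 and 25.3). Transcripts of granzyme B and leukocyte elastase, known targets of *Serpina3n*, were thus near 0 where *Serpina3n* itself had a mean of 2444. Protein was not measured in these data.

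Promoters were compared for the 5 members with an entry in the RefSeq table for GRCm38.p6, a later build than that of the counts. The 250 bases before the start of *Serpina3n* and *Serpina3c* were identical at 229 of 247 aligned bases (92.7%), the highest of all pairs, whereas the other pairs ran from 52.2% to 81.0%. The levels of these genes were 1184 and 0.667 per kb in the EC. Both sequences are shown in the direction of the gene because they pair the highest member of the cluster with one of the lowest, and capitals in *Serpina3c* mark bases with no identical aligned base in *Serpina3n*.
*Serpina3n* (chr12:104406458-104406707, plus strand): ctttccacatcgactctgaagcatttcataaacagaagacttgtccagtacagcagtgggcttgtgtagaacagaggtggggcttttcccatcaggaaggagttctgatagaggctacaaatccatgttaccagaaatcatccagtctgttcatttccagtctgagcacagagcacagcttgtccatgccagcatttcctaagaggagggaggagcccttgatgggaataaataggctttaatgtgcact
*Serpina3c* (chr12:104153873-104154122, minus strand): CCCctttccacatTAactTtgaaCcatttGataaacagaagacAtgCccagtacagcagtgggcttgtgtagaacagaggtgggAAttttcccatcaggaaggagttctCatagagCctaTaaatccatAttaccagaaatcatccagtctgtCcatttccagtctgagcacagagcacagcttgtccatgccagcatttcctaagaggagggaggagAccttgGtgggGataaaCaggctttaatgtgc
Simple motifs were searched on both strands of these windows. The STAT motif TTCNNNGAA was found once each in *Serpina3g*, *Serpina3i* and *Serpina3f* and not in *Serpina3n* or *Serpina3c*, and 7.02% of all 32851 promoters held it. The TATAAA motif was found in *Serpina3f* and *Serpina3c*, and 12.4% of all promoters held it. None of the 5 windows held the AP-1 motif TGANTCA, the C/EBP motif TTGCNNNAA or the full glucocorticoid receptor motif, which 6.75%, 8.29% and 0.0396% of all promoters held. A match of letters is a description only, and the absence of one says nothing about a factor.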

How the data were processed

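The authors aligned the reads to mm9 with Tophat 2.0.6 and Bowtie 2.0.2.0, counted them per gene with HT-SEQ on a modified NCBIM37 annotation of protein coding genes, and used DESeq2 1.10.1 within each region. The deposited value used here is a signal, the pooled mean of size-factor normalized counts over the 29 libraries of a region. The tables also hold the authors' own genotype comparison (log2 fold change, standard error, statistic and p-values), which was not used. No column of a single mouse was used, so no test was run. Genes were matched by symbol, and 80.6% of all genes and 95.6% of those with at least 10 in both regions had a single exon length in the GENCODE annotation of NCBIM37. Ratios were centred on the median gene with at least 10 in both regions, with 2-fold as the limit. Sequences were aligned globally with Biopython 1.88. Python 3.11.15, numpy 2.4.6, pandas 2.3.3 and matplotlib 3.10.9 were used, and the ratio procedure was tested on simulated data. All members, every other Serpina gene and the genes of fixed lists could be named, by default the highest 3 in the EC, and a gene singled out otherwise was named after its values were seen. The members and lists were chosen with earlier results of these data known. Alternatives were other sets of genes for ranking, other centring and minimum levels, levels without division by length, and other windows.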

Additional observations from a re-analysis of the deposited data

How the results depend on the processing

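The share of *Serpina3n* in the level of the family was 95.2% (EC) and 96.2% (PVC) without division by exon length. With all 10 Serpina3 genes listed it was 94.9% and 95.7%. These settings left little room for change. Exon lengths of the members ran only from 1654 to 2306 bases, and the added genes had means of 0.245 or less in the EC. Scaling each table to its sum left the count of members at least 2-fold higher in the EC at 1 of 3, with 2.88% of all genes. The count of members at least 2-fold higher in the EC was 1 of 3, and it was 3 of 3 with no centring, where 31.7% of all genes passed, and 3 of 6 with no minimum beyond a value above 0, where 8.23% did. With a minimum of 100 only *Serpina3n* had a ratio and the count was 0, with 1.36% of all genes. Places among genes depended on the genes ranked. Among genes with a mean of at least 10, *Serpina3m* was above 16.6% in the EC and 9.36% in the PVC, and *Serpina3g* above 16.2% and 1.17%. Ranking over all genes listed moved 6 of 14 places by 1.5 times or more, and ranking by level per kb moved 7 of 14, all of them of members with a mean under 10. The windows shared with another gene of the cluster depended on the setting. With up to 2 mismatches they were 0.0522% for *Serpina3n*, 10.99% for *Serpina3m*, 6.98% for *Serpina3g*, 9.52% for *Serpina3i*, 5.66% for *Serpina3f* and 11.02% for *Serpina3k*. With windows of 50 bases they were 6.90%, 19.07%, 14.22%, 15.4%, 10.35% and 17.57% in the same order, and 4.25% for *Serpina3c*. No paired analysis was possible because the tables hold no values of single mice. The unknown spread between mice limits every comparison. Both regions hold the same numbers of each genotype, so only a genotype difference that is unlike between the regions could enter a ratio of EC over PVC. *Serpina3m* and *Serpina3n* were selected on the genotype comparison. Whether such a difference enters their ratios cannot be seen from pooled means.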

Other observations

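Outside the 7 members, the other Serpina genes were scarcely found. Of the 16 listed, 2 reached a mean of 10 in the EC and 0 did in the PVC. These were *Serpina9*, at 22.7 in the EC and 8.61 in the PVC, and *Serpina12*, at 14.7 and 5.22. *Serpina1a*, a mouse gene for alpha-1-antitrypsin, the main plasma inhibitor of elastase, was at 2.02 and 0.559, and *Serpina6*, which encodes the corticosteroid-binding globulin, at 0.345 and 0.330.

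The fixed list of other serpins did not hold every serpin gene, and left out *Serpinb1b* (25.8 in the EC and 11.4 in the PVC), for instance. Of its 19 genes 18 were found, and 12 had at least 10 in both regions. Of these, 2 were at least 2-fold higher in the EC relative to the median gene and 1 was at least 2-fold lower, against 2.66% and 2.12% of all genes with at least 10 in both regions. The higher ones were *Serping1*, the complement C1 inhibitor, with a mean normalized count of 580 (EC) and 151 (PVC), and *Serpind1*, heparin cofactor, with 292 and 77.6. The lower one was *Serpinb8*, with 183 and 345, a log2 ratio of −1.81. All 3 were named after their values were seen, and none of these differences was tested. The 3 other serpins with the highest mean in the EC were *Serpini1* (17669 in the EC and 10086 in the PVC), *Serpine2* (6920 and 3439) and *Serpinb6a* (1384 and 637).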
